A study of Mus musculus with 13 samples.

Results

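Erythroid regulators and red cell membrane genes were followed as 8 genes, each chosen by its name: the transcription factors Gata1, Klf1, Nfe2 and Tal1, the erythropoietin receptor Epor, and the membrane genes Slc4a1, Rhag and Epb4.2. All 8 were found by symbol among the 23217 genes of the deposited table, and all 8 passed the filter of a mean of at least 1 FPKM that left 12755 genes for testing. An FPKM value counts the fragments of a gene per kilobase of its transcript, relative to all fragments mapped in that library. Polyadenylated RNA had been sequenced from 13 C57BL/6J mouse embryos at E9.5, labelled xHomo (10 embryos) or xHet (3 embryos). The study concerns Tet1, a 5-methylcytosine dioxygenase, and the erasure of imprints, but the labels do not spell out the names xHomo and xHet. The labels give neither the alleles that each embryo carries nor litter, sex or dissection, including whether the yolk sac was removed.

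Red cells of this stage are mostly primitive erythroblasts, which arise in the yolk sac, enter the circulation while still nucleated and fill with embryonic globins. GATA1, a zinc finger protein, and TAL1, a helix-loop-helix protein, bind erythroid genes together; KLF1 acts through CACCC boxes, and NF-E2, whose larger subunit Nfe2 encodes, acts at the globin loci with small Maf proteins. Erythropoietin acts through its receptor and the kinase JAK2 on survival and maturation. In the red cell membrane, band 3 (Slc4a1) exchanges chloride for bicarbonate and protein 4.2 (Epb4.2) ties it to ankyrin and the spectrin skeleton, while the Rh-associated glycoprotein (Rhag) carries the Rh complex.

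The RefSeq promoters (build GRCm38.p6) were found for 6 of the 8 genes (all but Nfe2 and Slc4a1), with 2 start sites for Tal1. They are shown for Epor and Rhag, the most closely correlated pair across embryos, and for the regulators Klf1 and Gata1, whose relation to that pair is described below. Only the 250 bases before the start site are printed and searched. Capitals mark the GATA motif (AGATAA or TGATAA or AGATAG or TGATAG) and the CACCC-type motif CCNCNCCC, both read on either strand; neighbouring CACCC-type matches in Epor overlap and form 1 run, and no GATA match overlaps a CACCC-type match in these 4. The windows are chr8:84901732-84901981 on the plus strand for Klf1, chr9:21963577-21963826 on the minus strand for Epor, chr17:40810899-40811148 on the plus strand for Rhag, and chrX:7967911-7968160 on the minus strand for Gata1.
Klf1: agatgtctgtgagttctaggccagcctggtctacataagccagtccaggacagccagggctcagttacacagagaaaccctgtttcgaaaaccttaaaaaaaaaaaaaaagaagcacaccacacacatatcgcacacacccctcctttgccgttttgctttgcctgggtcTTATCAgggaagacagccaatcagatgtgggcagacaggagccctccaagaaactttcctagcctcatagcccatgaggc
Epor: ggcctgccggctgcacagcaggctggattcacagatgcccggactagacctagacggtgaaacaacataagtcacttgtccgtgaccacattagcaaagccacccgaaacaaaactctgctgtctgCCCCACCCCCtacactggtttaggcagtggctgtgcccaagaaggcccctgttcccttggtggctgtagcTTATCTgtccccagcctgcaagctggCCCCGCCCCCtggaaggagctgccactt
Rhag: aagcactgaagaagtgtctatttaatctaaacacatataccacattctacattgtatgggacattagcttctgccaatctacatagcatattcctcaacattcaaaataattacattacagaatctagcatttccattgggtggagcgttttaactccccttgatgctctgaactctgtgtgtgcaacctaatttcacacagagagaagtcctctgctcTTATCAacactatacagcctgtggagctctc
Gata1: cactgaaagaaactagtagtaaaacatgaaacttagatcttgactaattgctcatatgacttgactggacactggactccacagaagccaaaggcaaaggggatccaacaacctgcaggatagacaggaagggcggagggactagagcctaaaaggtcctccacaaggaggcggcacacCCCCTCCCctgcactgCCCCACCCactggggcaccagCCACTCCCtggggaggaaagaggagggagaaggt
The GATA motif started 80 bases before the start site in Klf1, 54 in Epor and 31 in Rhag. Epor held 4 CACCC-type matches and Gata1 held 3, while Gata1 held no GATA match in this window. Over the 7 member windows, 5 held a GATA match and 3 a CACCC-type match; over all 32851 windows of the same length, 26.5% held a GATA match and 45.9% a CACCC-type match. A match is a description of letters and not evidence of binding.

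Over the whole series, summed FPKM ran from 500126 to 662936 in xHomo and from 543948 to 570161 in xHet embryos. The deposited values hold no counts, so read depth is unknown and members under 3 FPKM, such as Nfe2 and Epb4.2, are the least certain. Of all tested genes 3 passed between the groups (Alad, Rec8 and 4933404O12Rik, all higher in xHomo embryos), 11 without xHomo embryo 3, 5 without xHomo embryo 2, and 1 without xHet embryo 2 or 3. Tet1 stood at 2.15 ± 0.543 FPKM in xHomo (SD, n = 10) and 2.35 ± 0.367 FPKM in xHet embryos (SD, n = 3; limma adjusted p = 0.863). The library of xHomo embryo 3 stood apart from the others over all genes, and the values that moved most without it are given beside the results.

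The first comparison asked whether the members' mean levels differed between xHomo and xHet embryos. No member passed: differences ran from -0.27 (Epor) to 0.04 (Klf1) on the log2(FPKM+1) scale, xHomo minus xHet, and without xHomo embryo 3 from -0.19 to 0.027 (limma adjusted p from 0.659 to 0.961). In limma 0 of 8 had an unadjusted p under 0.05, against 9.35% of tested genes (7.63% higher and 1.72% lower in xHomo embryos). With adjustment over all genes 0 members and 0.0235% of tested genes passed. Means were lower in xHomo embryos for 7 of 8 members, as they were for 40.3% of tested genes; after TPM rescaling Klf1 was lower as well. The groups overlapped for all 8 members, while they did not overlap for 2.24% of tested genes (1.66% higher and 0.58% lower in xHomo embryos). Every member had xHomo embryos both above and below all xHet embryos. In whole embryos, fewer red cells and less RNA per red cell cannot be told apart.

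Among the transcription factors, Gata1 (mm9, chromosome X, 7536386 to 7544941) had a lowest value of 1.44, a median of 2.82 and a highest value of 4.74 FPKM in xHomo embryos, against 2.01, 3.48 and 3.88 FPKM in xHet embryos 1, 2 and 3. It averaged 2.94 ± 1.03 FPKM in xHomo (SD, n = 10) and 3.12 ± 0.985 FPKM in xHet embryos (SD, n = 3). The difference was -0.08 (SE 0.23) on the log2 scale, with a limma adjusted p of 0.922. Gata1 was the member that varied most among xHet embryos, and 6 of 10 xHomo embryos lay within that range. The sign of this difference turned without xHet embryo 3 (0.057, limma adjusted p = 0.989).

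Klf1 (chromosome 8, 87425827 to 87429194), which activates many late erythroid genes, had a lowest value of 1.92, a median of 3.85 and a highest value of 4.9 FPKM in xHomo embryos, against 3.32, 3.48 and 3.13 FPKM in xHet embryos 1, 2 and 3. The xHet values lay close together, so 6 xHomo embryos were above and 3 below all of them, with 1 between. Means of 3.55 ± 1.07 FPKM in xHomo (SD, n = 10) and 3.31 ± 0.175 FPKM in xHet embryos (SD, n = 3) differed by 0.04 (SE 0.21) on the log2 scale, with a limma adjusted p of 0.961. Its sign turned after TPM rescaling (-0.029) and without xHomo embryo 1 (-0.0015) or 7 (-0.0076).

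Nfe2 (chromosome 15, 103078649 to 103085847), also a platelet gene regulator, ran from 0.95 through a median of 1.85 to 2.89 FPKM in xHomo embryos, against 2.25, 2.51 and 1.8 FPKM in xHet embryos 1, 2 and 3. It was below all xHet embryos in 5 xHomo embryos and above them in 2. Tal1 (chromosome 4, 114732132 to 114744360), needed for the first blood cells, ran from 1.99 through a median of 3.0 to 4.78 FPKM in xHomo embryos, against 3.18, 3.66 and 3.40 FPKM in xHet embryos 1, 2 and 3. It was below all xHet embryos in 6 xHomo embryos and above them in 3. The log2 changes were -0.20 (SE 0.20, limma adjusted p = 0.772) for Nfe2 and -0.11 (SE 0.18, limma adjusted p = 0.864) for Tal1. Nfe2 was at -0.13 without xHet embryo 2, and Tal1 at -0.062 without xHomo embryo 3, -0.058 without xHomo embryo 4, -0.068 without xHet embryo 2 and -0.16 without xHomo embryo 1. Both genes are also active outside red cells, Tal1 in endothelium and both in megakaryocytes.

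The receptor gene Epor (chromosome 9, 21763343 to 21768020) had the most negative mean difference of the members. It ran from 2.07 through a median of 4.85 to 7.53 FPKM in xHomo embryos, against 5.05, 5.76 and 5.84 FPKM in xHet embryos 1, 2 and 3. It was, in 7 of 10 xHomo embryos, below all xHet embryos, and in xHomo embryos 1 and 5 above them. The means were 4.65 ± 1.62 FPKM in xHomo (SD, n = 10) and 5.55 ± 0.435 FPKM in xHet embryos (SD, n = 3), and the difference was -0.27 (SE 0.24) on the log2 scale, with a limma adjusted p of 0.739. The difference was about the size of its standard error. Without xHomo embryo 3 it was -0.18 (limma adjusted p = 0.669).

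Of the membrane genes, Slc4a1 (chromosome 11, 102210134 to 102226595) was the most abundant member per length. It ran from 9.77 through a median of 18.7 to 30.3 FPKM in xHomo embryos, against 21.1, 24.8 and 22.4 FPKM in xHet embryos 1, 2 and 3, and was below all xHet embryos in 6 xHomo embryos. Rhag (chromosome 17, 40948098 to 40977703) ran from 2.36 through a median of 5.14 to 7.80 FPKM in xHomo embryos, against 5.08, 5.70 and 5.74 FPKM in xHet embryos 1, 2 and 3. Rhag was below all xHet embryos in 5 xHomo embryos and above them in 3. Epb4.2 (chromosome 2, 120843953 to 120862491) was the least abundant membrane gene, from 1.22 through a median of 1.61 to 2.67 FPKM in xHomo embryos, against 1.5, 2.28 and 2.48 FPKM in xHet embryos 1, 2 and 3. The log2 changes were -0.23 (SE 0.25) for Slc4a1, -0.16 (SE 0.26) for Rhag and -0.18 (SE 0.17) for Epb4.2, with limma adjusted p = 0.786, 0.864 and 0.758. Without xHomo embryo 3 Slc4a1 was at -0.13 and Rhag at -0.072, and without xHomo embryo 6 Rhag was at -0.08. Epb4.2 was at -0.33 without xHet embryo 1 and at -0.087 without xHet embryo 3.

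**Figure D1:**
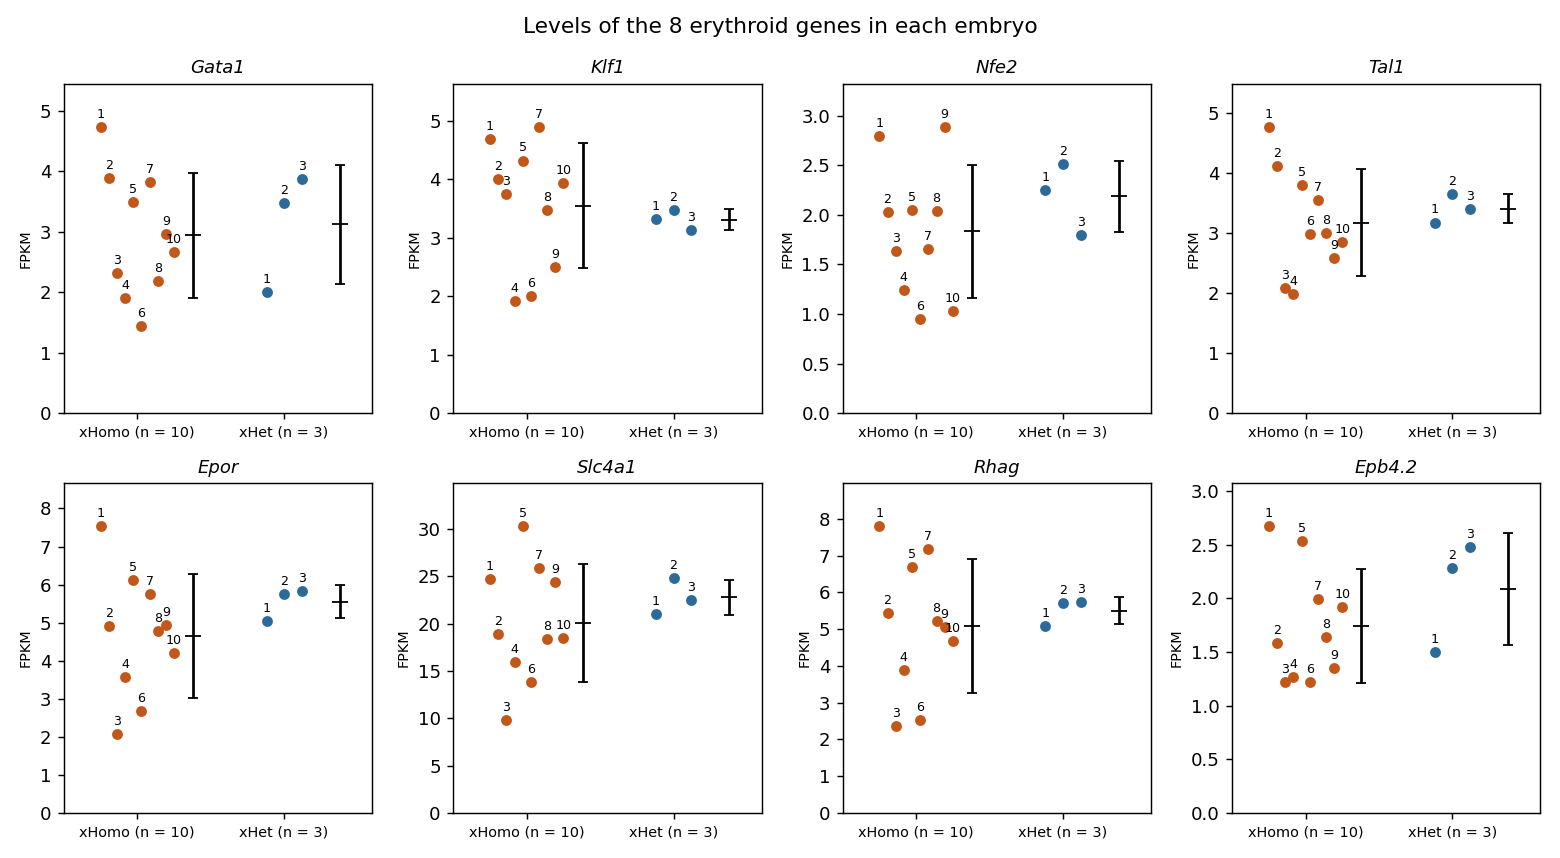
Levels of the 8 genes in FPKM (vertical axes, starting at 0) in each xHomo (orange, n = 10) and xHet embryo (blue, n = 3), with the embryo number over each point and the mean ± SD in black beside each group. The groups overlap for every gene, and for Klf1, Epor, Slc4a1 and Rhag the xHet points lie close together inside a wide xHomo range.

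The spread was then described gene by gene. Highest over lowest among xHomo embryos was 3.64 for Epor, 3.31 for Rhag, 3.29 for Gata1, 3.10 for Slc4a1, 3.04 for Nfe2, 2.55 for Klf1, 2.40 for Tal1 and 2.19 for Epb4.2. Among the 3 xHet embryos the same ratio was 1.11 to 1.18 for Klf1, Rhag, Tal1, Epor and Slc4a1, and 1.39 to 1.93 for Nfe2, Epb4.2 and Gata1. On the log2 scale the SD was larger among xHomo than among xHet embryos for 8 of 8 members, but so it was for 90.3% of tested genes, and 3 embryos give a poor estimate of an SD. The median SD of the members was 0.38 among xHomo and 0.11 among xHet embryos, against 0.23 and 0.10 over all tested genes. Set beside the 1000 tested genes nearest in mean level, the xHomo SD of Slc4a1, Rhag and Epor stood at percentiles 95.1, 93.2 and 91.9. That of Epb4.2 stood at 52.6. Slc4a1, Rhag and Epor were also the members farthest below the xHet mean in xHomo embryo 3 (-1.14, -0.95 and -1.09 in log2(FPKM+1)). Their spread without that embryo is not given here. No single xHomo embryo stood apart for any member by Dixon's criterion (largest gap 0.298 of the range, Slc4a1 in xHomo embryo 3, against a limit of 0.466).

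Which embryos were low or high was next compared between members. Differences per embryo are from the xHet mean in log2(FPKM+1). In xHomo embryos 4 and 6 all 8 members were below all xHet embryos, where 17.7% and 18.6% of tested genes were below them and 49.0% and 51.2% above. Their member medians were -0.49 and -0.69, while the median of all tested genes was 0.10 and 0.11. At the other end, 7 of 8 members in xHomo embryo 1 were above all xHet embryos, and 0 below, against 30.9% and 27.6% of tested genes, with a median of 0.39 for the members and 0.01 for all genes. In xHomo embryo 5, 6 of 8 members were above them, near the 60.5% of all tested genes, and 0 below, against 14.2%. In xHomo embryo 7, 3 were above and 1 below, against 43.4% and 25.5%.

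In the library of xHomo embryo 3, 62.3% of all tested genes were below all xHet embryos, with a median of -0.27. In it 6 of 8 members were below, a share near that background, and 1 was above, against 20.1% of tested genes. The differences were uneven among members. Slc4a1, Epor and Rhag were at -1.14, -1.09 and -0.95, Tal1 and Epb4.2 at -0.52 and -0.46, Gata1 and Nfe2 at -0.28 and -0.27, and Klf1 at 0.14, above all xHet embryos.

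In the remaining xHomo embryos the members were mixed. In xHomo embryo 2, 2 members were below and 3 above all xHet embryos, with 30.9% and 27.8% of tested genes on those sides. Embryos 8, 9 and 10 had 3, 5 and 5 members below, against 21.7%, 30.8% and 23.2% of tested genes, and 0, 1 and 1 above, against 49.6%, 47.0% and 41.7%. Nfe2 departed from the other factors in 2 of these embryos, at 0.29 in xHomo embryo 9, where Klf1 and Tal1 were both at -0.30, and at -0.64 in xHomo embryo 10, where Klf1 was at 0.20. Counted by rank within the 10 xHomo embryos, embryo 4 was among the 3 lowest for 8 of 8 members and embryo 6 for 7, while embryo 1 was among the 3 highest for 8 and embryo 5 for 7.

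**Figure D2:**
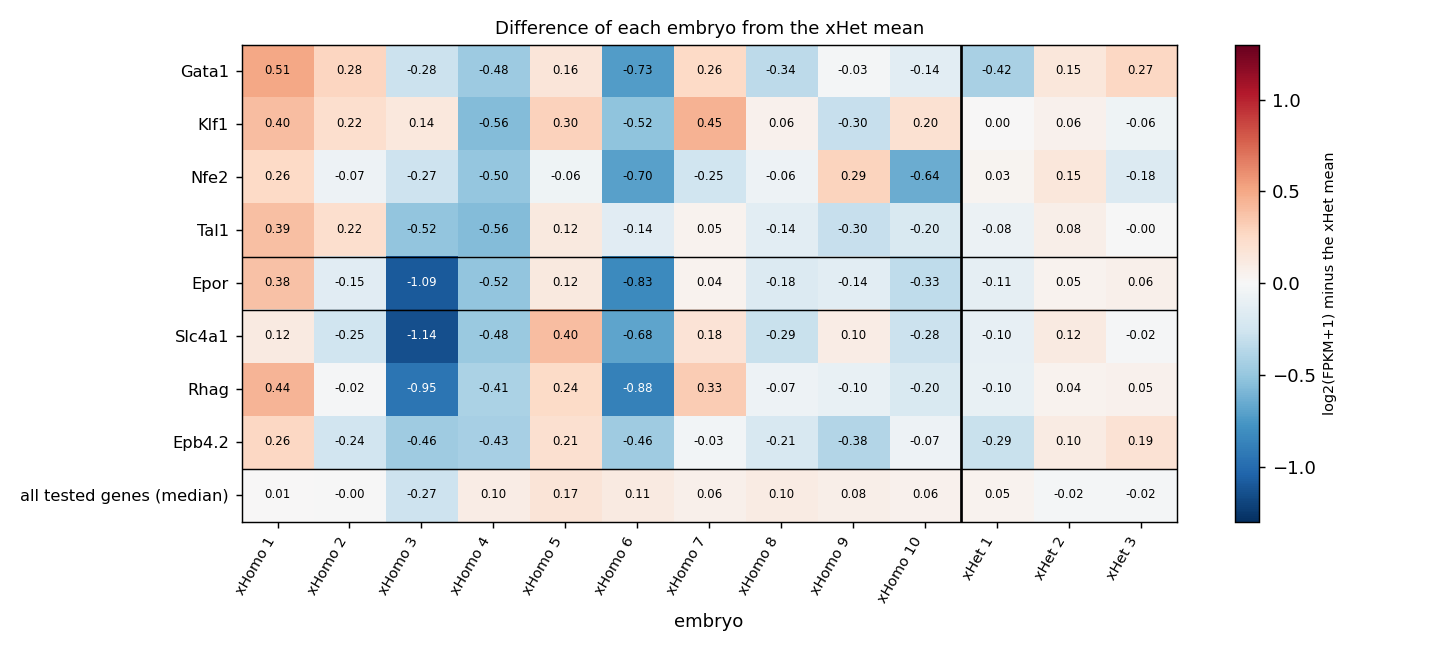
Difference of each embryo (columns, xHomo left of the black line, xHet right of it) from the xHet mean in log2(FPKM+1), for the transcription factors, the receptor and the membrane genes (rows) and for the median of all 12755 tested genes (bottom row). xHomo embryos 4 and 6 are low for all 8 genes while the bottom row is slightly above 0, and xHomo embryo 1 is high for all 8; in xHomo embryo 3 the bottom row itself is at -0.27 and Klf1 alone is above 0.

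Whether the members varied together was measured across the 10 xHomo embryos, with all 28 pairs computed in log2(FPKM+1). All 28 correlations were positive, from 0.37 (Klf1 with Nfe2) to 0.98 (Epor with Rhag), with a median of 0.75. By Pearson's r 16 pairs passed in a two-sided permutation test with Benjamini-Hochberg adjustment over the 28 pairs, and by Spearman's rho 21 did. The count by rho was 15 after median-of-ratios scaling, 12 after rescaling without globin genes and 7 without xHomo embryo 1. Embryos share a library with all their genes, and the part of scaling in these relations was not tested. After median-of-ratios scaling 15 pairs passed by r, and without xHomo embryo 3 18 pairs did (exact permutation test). Without xHomo embryo 1, the embryo highest for most members, 3 pairs passed by r, with r from 0.16 to 0.98 over the 28 pairs. Those 3 pairs were Epor with Rhag, Epor with Slc4a1 and Slc4a1 with Rhag. Of all tested genes, 4.83% had r above 0.7 to Slc4a1, 3.58% to Epor and 2.37% to Rhag. For the other members this share was 0.345% (Klf1) to 0.8% (Tal1), with 0.384% for Nfe2. Slc4a1, Epor and Rhag were thus alike to more genes in general, not only to each other.

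The receptor and the 2 multipass membrane genes had the highest correlations. Epor and Rhag had a Pearson r of 0.984 (permutation p of 1e-05, the smallest that 100000 resamples can give; 0.00028 after adjustment). Spearman's rho was 0.952 (permutation p of 0.00016; 0.00224 after adjustment), and r was 0.965 without the 2 embryos farthest from the Epor median. Epor and Slc4a1 had a Pearson r of 0.929 (permutation p of 0.00016; 0.00149 after adjustment). Spearman's rho was 0.952 (permutation p of 0.00011; 0.00224 after adjustment), and r was 0.798 without 2 embryos. Slc4a1 and Rhag had a Pearson r of 0.916 (permutation p of 0.00016; 0.00149 after adjustment). Spearman's rho was 0.891 (permutation p of 0.0011; 0.0077 after adjustment), and r was 0.895 without 2 embryos. Epor and Rhag differed little in level per length as well: their ratio ran from 0.798 to 1.06 in xHomo embryos, against 0.994 to 1.02 in xHet embryos. It was below all xHet embryos in 9 of 10 xHomo embryos and above them in xHomo embryo 6; ratios were chosen after the values were seen and were not tested.

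Among the transcription factors, Gata1 had 6 of its 7 pairs passing by r, Tal1 4 and Klf1 2. Of these, Gata1 with Slc4a1 passed narrowly (permutation test, adjusted p = 0.0479). It did not pass after median-of-ratios scaling (adjusted p = 0.0502) or rescaling without globin genes (adjusted p = 0.0638), both by permutation test. On leaving out 1 xHomo embryo it failed in 7 of 10 cases. Gata1 with Rhag had a Pearson r of 0.837 (permutation p of 0.00251; 0.0154 after adjustment). Spearman's rho was 0.83 (permutation p of 0.00477; 0.0148 after adjustment), and r was 0.687 without 2 embryos. Gata1 with Klf1 had a Pearson r of 0.801 (permutation p of 0.00532; 0.0186 after adjustment). Spearman's rho was 0.855 (permutation p of 0.00296; 0.012 after adjustment), and r was 0.675 without 2 embryos. Nfe2 had 0 of its 7 pairs passing by r (1 of 7 without xHomo embryo 3), and Klf1 with Nfe2 turned to r = -0.31 without 2 embryos. Gata1 with Nfe2 was near the limit (r = 0.677, permutation test, adjusted p = 0.0562). It passed with a pseudocount of 0.1, after median-of-ratios scaling, and without xHomo embryo 7, 8, 9 or 10. Nfe2 with Epor passed by rho (0.77, permutation test, adjusted p = 0.0251), but not after median-of-ratios scaling (0.491, adjusted p = 0.216).

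Klf1 parted from Epor, Slc4a1 and Rhag in xHomo embryo 3. Klf1 with Epor had a Pearson r of 0.554 over 10 embryos (permutation p of 0.0945; 0.115 after adjustment). Spearman's rho was 0.709 (permutation p of 0.0275; 0.0367 after adjustment), and r was 0.332 without the 2 embryos farthest from the Klf1 median. Without xHomo embryo 3 the same pair gave r = 0.818 (exact permutation p = 0.00509, adjusted p = 0.0143), and Klf1 with Rhag gave r = 0.864 (exact permutation p = 0.00106, adjusted p = 0.00745). Per length, Klf1 over Epor was 1.81 in xHomo embryo 3, 0.507 to 0.938 in the other 9 xHomo embryos and 0.536 to 0.657 in xHet embryos. Klf1 over Slc4a1 was 0.384 in xHomo embryo 3, 0.102 to 0.213 in the other 9 and 0.139 to 0.158 in xHet embryos. Whether Klf1 with Epor and Klf1 with Rhag pass by r thus rests on xHomo embryo 3. Klf1 with Slc4a1 did not pass by r even without that embryo (r = 0.689, exact permutation test, adjusted p = 0.0589). By Spearman's rho this pair passed over all 10 embryos (0.733, permutation test, adjusted p = 0.0295). It also passed by rho without xHomo embryo 3 (0.833, exact permutation test, adjusted p = 0.021). After median-of-ratios scaling it did not pass by rho (0.285, permutation test, adjusted p = 0.46). Klf1 with Epb4.2 passed over all 10 embryos (r = 0.759, permutation test, adjusted p = 0.0263).

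**Figure D3:**
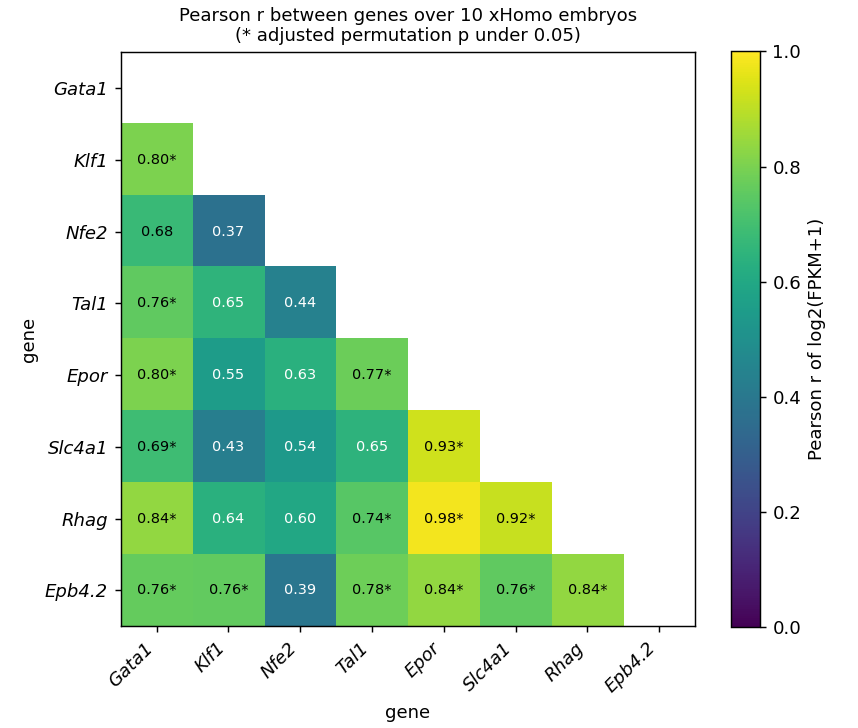
Pearson r of log2(FPKM+1) between each pair of the 8 genes over 10 xHomo embryos, as colour and number, with an asterisk where the permutation p adjusted over 28 pairs was under 0.05. The highest values are those among Epor, Slc4a1 and Rhag (0.92 to 0.98), and the Nfe2 row and column hold no asterisk.

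**Figure D4:**
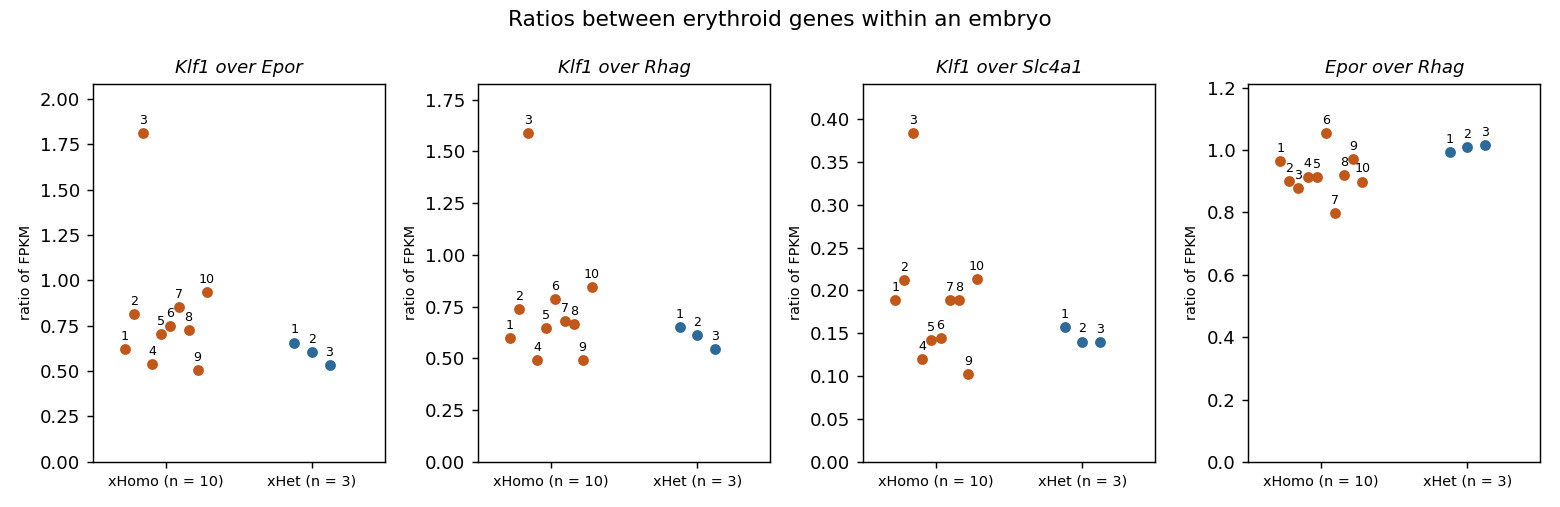
Ratios of FPKM between 2 genes within an embryo (vertical axes, starting at 0) for xHomo (orange, n = 10) and xHet embryos (blue, n = 3), with embryo numbers over the points. xHomo embryo 3 lies above all others in the 3 panels with Klf1 on top (1.81 for Klf1 over Epor), whereas Epor over Rhag stays between 0.798 and 1.06.

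The genes most like the members were named by Pearson r over the 10 xHomo embryos to the mean of the 8 standardised members; this is a description, since the embryos share libraries. Of the other 12747 tested genes 115 (0.902%) had r above 0.7. Those with the highest r included Spns2 (0.948), a sphingosine phosphate exporter; Slc25a37 (0.933), the mitochondrial iron importer of erythroblasts; Aqp3 (0.924), a water and glycerol channel; Kel (0.895), the Kell antigen; Spnb1 (0.894), red cell beta spectrin; Foxh1 (0.89), a forkhead factor; Ptpmt1 (0.886), a mitochondrial phosphatase; Alas2 (0.885), the erythroid first enzyme of heme synthesis; and Dhrs11 (0.882), a dehydrogenase. Without xHomo embryo 3 the r of these 9 was 0.856 (Dhrs11) to 0.974 (Kel). Alas2 ranged between 14.8 and 25.0 FPKM in 8 xHomo embryos and was lower, at 10.5 and 12.5 FPKM, in embryos 4 and 6, against 22.0, 20.6 and 18.9 FPKM in xHet embryos 1, 2 and 3.

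Other red cell genes were set beside the members. Of 18 measured genes of the membrane and its skeleton 9 had r above 0.7 to the members (median 0.71), and of 12 genes of heme synthesis and iron supply 7 did (median 0.76), against a median of 0.15 over all tested genes. Without xHomo embryo 3 these medians were 0.62 for the membrane genes, 0.74 for the heme and iron genes and -0.10 over all tested genes. Between groups, the 18 membrane genes had 8 higher and 10 lower means in xHomo embryos, with 0 passing and a median log2 change of -0.07, against 0.05 over all tested genes. Those with the smallest p included Ermap, an erythroblast surface protein, at 3.24 ± 1.0 FPKM in xHomo (SD, n = 10) and 4.36 ± 0.35 FPKM in xHet embryos (SD, n = 3; limma adjusted p = 0.581). Kel stood at 3.77 ± 1.52 FPKM in xHomo and 4.93 ± 0.77 FPKM in xHet embryos (limma adjusted p = 0.685).

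Of the heme and iron genes 5 had higher and 7 lower means in xHomo embryos, and 1 passed. That was Alad, the second enzyme of heme synthesis, at 55.2 ± 5.98 FPKM in xHomo (SD, n = 10) and 26.5 ± 0.208 FPKM in xHet embryos (SD, n = 3), a difference of 1.02 (SE 0.10) on the log2 scale with a limma adjusted p of 0.000578. Within the xHomo group Alad followed the members (r = 0.818), with 48.2 and 47.0 FPKM in embryos 4 and 6 and up to 67.1 FPKM in embryo 7, although all 10 xHomo embryos lay above the xHet embryos. Slc25a37 stood at 27.7 ± 7.98 FPKM in xHomo and 40.2 ± 3.37 FPKM in xHet embryos without passing (-0.57 on the log2 scale, SE 0.22, limma adjusted p = 0.505).

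Globin levels differed between xHomo embryos 4 and 6 and embryo 3. Their levels summed to 5239 FPKM (embryo 4), 6399 FPKM (embryo 6) and 12206 FPKM (embryo 3) in the xHomo group, against 10323 to 10492 FPKM in xHet embryos. Hbb-bh1, an embryonic beta-type globin, stood in xHomo embryos 4, 6 and 3 at 1098, 1400 and 2702 FPKM, whereas xHet embryos 1, 2 and 3 stood at 2527, 2593 and 2601 FPKM. In embryos 4 and 6 globins and all 8 members were low together, while in embryo 3 Epor, Slc4a1 and Rhag were low and Klf1, Hbb-bh1 and the globin sum were not. The globins were mixed in embryo 3, where Hba-a2, an alpha globin gene whose reads may be split with its near-identical copy Hba-a1, stood at 275.5 FPKM, against 290.0, 317.9 and 309.5 FPKM in xHet embryos 1, 2 and 3. Hbb-b2, an adult beta globin gene, stood there at 12.6 FPKM, against 13.7, 20.3 and 19.7 FPKM in the xHet embryos. Between groups 0 of 6 measured globins passed, with a median log2 change of 0.05.

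Genes that work with the members' products were read next. Of 14 measured partner factors 0 had r above 0.7 (median 0.25, and 0.011 without xHomo embryo 3), and means were higher in xHomo embryos for 7 and lower for 7. Gfi1b, a repressor needed in erythroid maturation, stood at 1.46 ± 0.677 FPKM in xHomo and 0.957 ± 0.146 FPKM in xHet embryos (limma adjusted p = 0.683). Nfe2l2, a relative of Nfe2 in stress responses, stood at 10.5 ± 1.25 and 8.91 ± 0.766 FPKM in xHomo and xHet embryos (limma adjusted p = 0.557). Of 8 measured genes of erythropoietin signalling 0 had r above 0.7 (median 0.35, and 0.18 without xHomo embryo 3), with 6 higher and 2 lower means and 0 passing; Stat5b, which the receptor activates through JAK2, stood at 4.6 ± 1.0 FPKM in xHomo and 3.57 ± 0.345 FPKM in xHet embryos (limma adjusted p = 0.588).

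Markers of cell types that share some of these genes, or that a dissection could carry along, were read in the same way. Endothelial markers were lower in mean for 9 of 9 genes in xHomo embryos, with 0 passing and a median log2 change of -0.29; their summed level was 79.2 to 207 FPKM in xHomo and 203 to 213 FPKM in xHet embryos. The 79.2 FPKM belonged to xHomo embryo 3, where the 9 genes had a median of -1.27, while embryos 4 and 6 had sums of 204.5 and 166 FPKM. Megakaryocyte markers (7 of 9 measured) summed to 13.3 to 51.9 FPKM over all xHomo embryos, with 13.3 FPKM in embryo 3, 26.8 FPKM in embryo 4 and 19.9 FPKM in embryo 6, against 24.8 to 32.7 FPKM in xHet embryos. The low levels in embryo 4 therefore came with endothelial and megakaryocyte sums within the xHet range, and those in embryo 6 with sums below it. Their part in the members' levels was not tested.

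Of the remaining lists, macrophage markers had 1 of 9 genes past the filter and summed to 3.47 to 8.63 FPKM in xHomo and 5.83 to 8.65 FPKM in xHet embryos. Lymphoid and other myeloid markers had 0 of 7, with S100a8 and S100a9 listed at 0 in all embryos and sums of 0.08 to 0.58 FPKM in xHomo and 0.26 to 0.82 FPKM in xHet embryos. Placental and decidual markers had 2 of 9, with Tpbpa listed at 0 throughout. Their sums were 12.7 to 20.5 FPKM in xHomo and 10.2 to 12.9 FPKM in xHet embryos. Most of each sum was Hand1, at 12.6 ± 1.59 FPKM (SD) in xHomo and 9.03 ± 0.19 FPKM in xHet embryos (limma adjusted p = 0.372). The other measured gene, Prl3b1, went the other way, at 1.22 ± 0.922 and 2.06 ± 0.995 FPKM (limma adjusted p = 0.647). Under the filter, Prl2c2 (1.11 and 0.227 FPKM) and Prl3d1 (0.533 and 0.0967 FPKM) had higher means in xHomo than in xHet embryos. Gcm1 (0.206 and 0.233 FPKM) had a lower mean in xHomo embryos. A sum held mostly by 1 gene cannot show whether placental or decidual tissue was carried along. Yolk sac endoderm markers (3 of 7 measured) summed to 10.4 to 66.5 FPKM in xHomo embryos, lowest in embryo 3, and to 29.9 to 42.1 FPKM in xHet embryos.

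**Figure D5:**
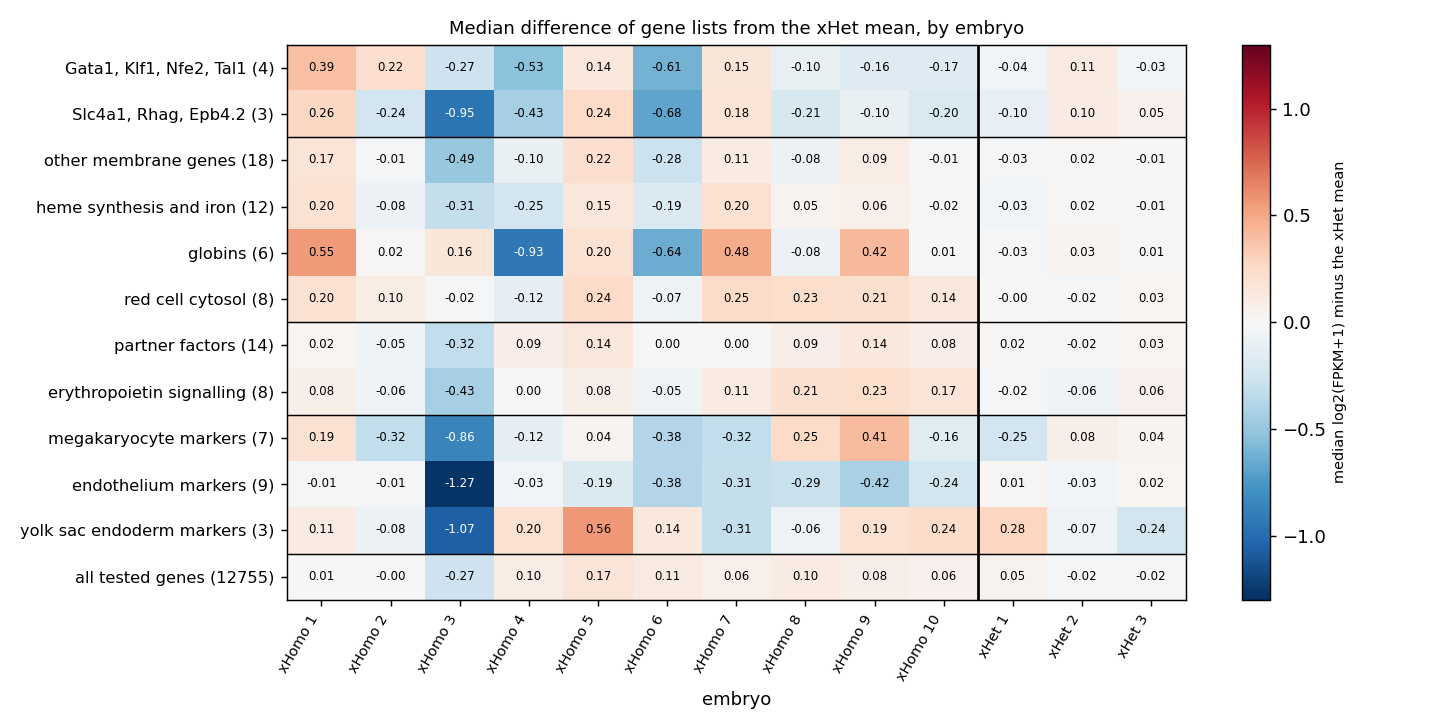
Median difference from the xHet mean in log2(FPKM+1) for lists of genes (rows, with the number of measured genes) in each embryo (columns, xHomo left of the black line). In xHomo embryos 4 and 6 the members and the globins are low while partner factors and all tested genes are near 0, and in xHomo embryo 3 endothelial markers are at -1.27 while globins are at 0.16.

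Xist levels were not balanced between the groups. Xist, whose RNA coats the X chromosome that is silenced in females, was 0.05 to 0.10 FPKM in xHomo embryos 1, 4, 5, 6 and 8, 30.5 to 159 FPKM in the other 5 xHomo embryos, and 0.05 to 0.08 FPKM in all xHet embryos. The X-linked Gata1 averaged 2.75 ± 1.35 FPKM in xHomo embryos with low Xist (SD, n = 5), 3.13 ± 0.701 FPKM in those with high Xist (SD, n = 5) and 3.12 ± 0.985 FPKM in xHet embryos (SD, n = 3). Restricted to embryos with low Xist, the 8 log2 changes ran from -0.21 to -0.06, with limma adjusted p from 0.585 to 0.895; this restriction was chosen after seeing the data. The sex list holds Xist and 4 genes of the Y chromosome (Ddx3y, Eif2s3y, Kdm5d and Uty). All 4 Y genes were at 0.04 FPKM or less in the 5 xHomo embryos with high Xist. In the 5 xHomo embryos with low Xist, Eif2s3y was 26.2 to 34.6 FPKM, and in xHet embryos 32.3 to 37.9 FPKM. By these genes, all xHet embryos read as male and the xHomo embryos as a mixture, so sex was not balanced. With both kinds in the xHomo group, 0 of the 5 genes passed between the groups. Embryo 1, the highest for 5 members, and embryos 4 and 6, each the lowest for 2, had low Xist, while embryo 3, the lowest for 3 (Epor, Slc4a1 and Rhag), had 30.5 FPKM.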

How the data were processed

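Per the labels' protocols, column-purified, DNase-treated total RNA was poly(A)-selected and made into directional libraries with a NEBNext Ultra kit. The tools were bcl2fastq 1.8.2, Cufflinks and TopHat, per the submitters' processing notes. Other versions, the annotation, the strand setting and any filter were not stated. The authors deposited 1 table of FPKM per gene and embryo, with loci on mm9 per the submitters' processing notes. Its starts were read as counted from 0, since end minus start equalled the RefSeq gene length for 7169 of 20639 matched genes and fell 1 short of it for 455; printed starts are counted from 1. No other row overlapped a member's locus.

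Groups came from the sample titles. Genes with a mean of at least 1 FPKM over 13 embryos were tested on log2(FPKM+1), which understates changes of low genes, using R 4.3.3 and limma 3.58.1 (two-sided, eBayes with trend after lmFit, no covariates), Benjamini-Hochberg adjusted over 12755 genes at 0.05. The step was tested on simulated data in which both groups had the same SD per gene. The unequal spread of xHomo and xHet embryos was not simulated. Embryos are taken as replicates; litters are not in the labels, so p-values measure only the spread between these samples. The members and gene lists were chosen with earlier results of these data known. Correlations used 10 xHomo embryos and 100000 permutations, exact enumeration with 9, and were not computed where a gap between values exceeded 0.5 of a gene's range. Named genes were the members, up to 4 genes of smallest p per list, genes passing in limma, the 10 most like the members' mean profile (1 of them is not reported here), Xist and Tet1; ratios, Blvrb and Hemgn were chosen after values were seen. Alternatives covered pseudocounts, filters, scalings, array weights, permutation, Xist, the replicate block and leaving out each embryo. Computation used Python 3.11.15, numpy 2.4.6, pandas 2.3.3, scipy 1.17.1 and matplotlib 3.10.9.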

Additional observations from a re-analysis of the deposited data

How the results depend on the processing

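No member passed in limma under any alternative, and leaving out 1 embryo kept the members' log2 changes between -0.34 and 0.11, with the lowest limma adjusted p at 0.61. With array weights 2779 genes passed overall and 0 members (lowest member limma adjusted p = 0.178). Over all genes, 11 passed with no filter, 1 with a filter at 5 FPKM, 5 after TPM rescaling, 5 after quantile normalization, 5 after rescaling without globin genes, 1 with the Xist covariate, 8 among embryos with low Xist (chosen after seeing the data) and 0 by exact permutation per gene (1196 at an unadjusted p under 0.05, smallest adjusted p = 0.388); leaving out 1 embryo gave 1 to 11. The cause of these shifts was not tested. A filter at 5 FPKM left Slc4a1 and Rhag as the measured members.

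Signs turned for differences near 0. Klf1 became -0.029 after TPM rescaling, -0.029 after rescaling without globin genes, -0.058 with the Xist covariate and -0.065 among embryos with low Xist, and ran from -0.0076 to 0.11 on leaving out 1 embryo. Gata1 ran from -0.29 without xHet embryo 1 to 0.057 without xHet embryo 3. The numbers 1 to 3 of the titles gave no sign of pairing. Deviations of same-numbered embryos had r = -0.0652, -0.0403 and -0.0383, against -0.0598 to 0.1045 between different numbers. With 3 xHet embryos this cannot exclude a shared litter or batch. With a replicate block on the 6 embryos that share numbers 1 gene passed, against 2 in the same embryos without the block (added after seeing the data). Under the replicate block Gata1 was 0.17 and Tal1 0.031, as they were in these 6 embryos without it.

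Of the 28 pairs, 16 passed by r; 14 to 17 did with a pseudocount of 0.1 or another scaling, and 3 (without xHomo embryo 1) to 18 on leaving out 1 embryo. Without xHomo embryo 9, 7 pairs could not be computed, since values of a gene fell into separate clusters. Klf1 with Nfe2 turned to -0.31 without the 2 embryos farthest from the median. Depth is unknown, so counting error could not be given for any member.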

Other observations

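The list named red cell cytosol, which holds enzymes but also genes of other products such as Hemgn, was mixed. Of 8 measured genes 5 had higher and 3 lower means in xHomo embryos, with 0 passing in limma and a median log2 change of 0.07. Cat, which encodes catalase, stood at 27.6 ± 2.78 FPKM in xHomo (SD, n = 10) and 22.3 ± 0.725 FPKM in xHet embryos (SD, n = 3), with a limma adjusted p of 0.481. Prdx2, an abundant red cell peroxiredoxin also made elsewhere, stood at 567.8 ± 60.02 and 448 ± 39.1 FPKM in xHomo and xHet embryos (limma adjusted p = 0.494). Across the 10 xHomo embryos these 2 genes had r = -0.151 and -0.238 to the members' mean, while Car2, the cytosolic carbonic anhydrase, had r = 0.769. Blvrb, a biliverdin reductase, and Hemgn, a nuclear protein of blood cells, both chosen after their values were seen, had r = 0.864 and 0.708.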
